A study of Rattus norvegicus with 4 samples.

Results

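Among 4 arrays of rat myometrium, the muscle layer that contracts the uterus, 2 were chosen by their high signals of 3 estrogen-responsive genes, Igf1, Pgr and Hsd11b2, and were compared with each other. They are the array of estradiol at 24 h and the array labelled 6 h control. The compared features were the 8740 probe sets that are not Affymetrix controls, out of 8799 on the array, and 4736 genes each represented by its brightest probe set. All rats were 60-day-old females whose ovaries had been removed a week before. They received a subcutaneous injection of estradiol benzoate at 10 µg/kg or the vehicle, and the muscle was taken 6 or 24 h later. Each array carried RNA pooled from 6 animals, and there was 1 array for each treatment and time, so no spread between pools is known and no test was made. The other arrays are the 24 h control and the array labelled 6 h estradiol.

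Estradiol acts through nuclear receptors that bind DNA and change transcription, and the uterus of an ovariectomized animal answers in waves. Early targets include transcription factors, growth factors and vascular genes. Later ones include enzymes of growth, secreted proteins and matrix. The labels do not settle what this pair compares, because Igf1, Pgr, Hsd11b2 and S100g were lower on the array labelled 6 h estradiol than on the array labelled 6 h control. If the 6 h labels were exchanged, the pair would set a late response to estradiol against an early one, but this is not established. As labelled, the arrays differ in both treatment and time. Both arrays of 24 h were scanned on 1 day and both of 6 h on another, so time, scan day and whatever else went with them cannot be told apart. The 24 h control minus the array labelled 6 h estradiol has the same contrast of time and scan day and shares no array with the chosen pair. It is called the other pair.

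Signals were deposited as MAS5 intensities with a 2% trimmed mean of 500 on each array. Signals under an array's 40th percentile were raised to it, a floor between 89.5 and 108 units. A gene counted as higher or lower when its log2 difference reached 1, that is 2-fold, with the brighter array above its floor. Of 5806 probe sets above the floor on at least 1 of the chosen arrays, 382 were higher on the 24 h estradiol array (6.58%) and 615 lower (10.6%). By genes, 208 of 3446 were higher (6.04%) and 336 lower (9.75%), with a median log2 difference of -0.15. In the other pair 77 of 3413 genes were higher (2.26%) and 272 lower (7.97%), and the median was 0.02. The excess of lower genes depended on the scaling. A common median raised all log2 differences of the chosen pair by 0.235 and gave 632 probe sets higher and 336 lower, or 349 genes higher (10.1%) and 177 lower (5.14%). Within a scan day, the 24 h estradiol array had 314 of 3442 genes higher than the 24 h control (9.12%) and 291 lower (8.45%). The array labelled 6 h control had 184 of 3403 higher than the array labelled 6 h estradiol (5.41%) and 234 lower (6.88%). Each of these comparisons shares an array with the chosen pair, and each sets a chosen array against one of the others, so they are given as description only. With the other pair's difference subtracted, 394 genes of the chosen pair were higher (11.4%) and 395 lower (11.5%). Controls spiked into the hybridisations, which carry no rat RNA, were 2.35-fold brighter in geometric mean on the 24 h estradiol array, and 2.29-fold brighter in the other pair. The ratio of 3' to 5' signal of Gapdh was 1.15 and 1.10 on the chosen arrays, and that of Actb 1.24 and 1.27. The wash record of the 24 h control array had stopped early, and those of the chosen arrays were complete.

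**Figure D1:**
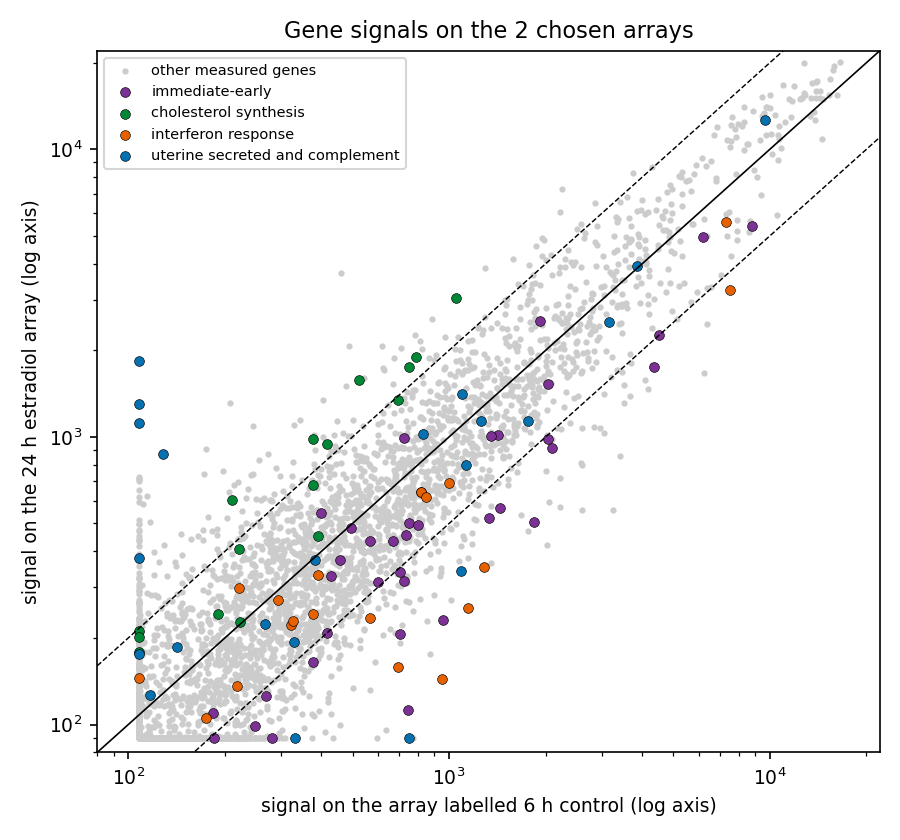
Signal of each measured gene on the array labelled 6 h control (horizontal, log axis) and on the 24 h estradiol array (vertical, log axis), 1 point per gene, with signals under the floor drawn at the floor. The solid line marks equal signals and the dashed lines 2-fold; genes of cholesterol synthesis lie above the solid line and most immediate-early genes below it.

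The genes that chose the arrays were close to each other on them. Signals are given throughout in the order 24 h estradiol, labelled 6 h control, 24 h control and labelled 6 h estradiol. Igf1, a growth factor that mediates uterine growth, had 5182, 7872, 665 and 704 units, and was 1.52-fold lower on the 24 h estradiol array. Of its 5 probe sets 1 was past 2-fold in each direction, so its direction depends on the probe set. Pgr, the progesterone receptor, had 2143, 2669, 655 and 461 units and was 1.25-fold lower. Hsd11b2, an enzyme that inactivates glucocorticoids, had 6123, 3849, 809 and 462 units and was 1.59-fold higher. S100g, a calcium-binding protein of estrogen-exposed uterus, had 12673, 13858, 4619 and 1306 units. None of the 4 reached 2-fold between the chosen arrays, and each was higher on both of them than on the others. Of 24 other measured genes on a list of estrogen-responsive genes, 6 were higher and 4 lower, and their median log2 difference was 0.08. The other pair had 2 of 19 higher and 3 lower, and its median was 0.17. The higher were Kap, Cuzd1, C3, Mmp7, Agtr2 and Gja1, and the lower Fos, Myc, Vegfa and Igfbp3; with a common median 1 was lower. Kap, Cuzd1, C3 and Mmp7 are also on the list of secreted proteins below. Gja1, the main gap junction protein of labouring myometrium, had 229, 113, 107 and 34.9 units, and its difference turned in sign once the floor was raised to the 60th percentile. Oxtr, the oxytocin receptor, was above the floor only on the chosen arrays, with 302 and 209 units. The estrogen receptor Esr1 was above the floor only on the arrays of 24 h, with 195 units with estradiol and 255 in the control.

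Across the 4 arrays, 34 of 3619 genes measured on any array were at least 2-fold higher on both chosen arrays than on both others (0.939%), and 45 were lower on both (1.24%). This is the contrast by which the arrays were chosen and is a description only. Within the 34, Cyp51, Ccl11, Idi1 and Fdft1 were also higher on the 24 h estradiol array than on the array labelled 6 h control, and Mcpt1l1 was lower. The other 29 were within 2-fold, and the median was 0.05. They include Cd24, a surface glycoprotein, with 2542, 2199, 401 and 300 units, and Odc1, the first enzyme of polyamine synthesis, with 1288, 1282, 185 and 475 units. Among the 45 lower genes 0 passed 2-fold between the chosen arrays. Agtr1a, an angiotensin receptor, had 254, 217, 1131 and 919 units, and Gucy1a1, part of the soluble guanylate cyclase, had 195, 353, 1241 and 1386 units. Both genes were thus low on both chosen arrays. Of 10 measured genes of the circadian clock, 5 were lower and 0 higher at 24 h with estradiol than in the control, and 4 were lower and 1 higher on the array labelled 6 h control than on the array labelled 6 h estradiol. Per2 had 143, 259, 756 and 558 units, Nr1d1 487, 400, 1181 and 1352 units, and Dbp 464, 725, 1674 and 2329 units. Of the 10 only Csnk1d, a kinase that acts on PER proteins, passed 2-fold between the chosen arrays. It had 282, 897, 1167 and 741 units, 3.18-fold lower on the 24 h estradiol array, by 1 of its 2 probe sets. It was not low on the array labelled 6 h control.

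The 3 largest differences toward the 24 h estradiol array were of genes of secreted proteins. That array was at least 2-fold above each other array for 57 genes (1.58%) and below each for 56 (1.55%). Kap, an androgen- and estrogen-regulated kidney protein, had 1832, 10.3, 25.5 and 12.1 units, at least 16.9-fold higher than on the array labelled 6 h control. Cuzd1, an estrogen-regulated protein of uterus and pancreas, had 1306, 23.9, 62.7 and 76.7 units, at least 12.1-fold higher. C3, the central complement component and a classical estrogen-induced protein of uterine epithelium, had 1118, 48.7, 10.8 and 30.4 units, at least 10.3-fold higher. All 3 were above the floor only on the 24 h estradiol array, and in these bounds the dimmer array stands at its floor. Mmp7, a matrix protease of epithelium, had 872, 128, 126 and 148 units and was 6.82-fold higher. Cd55, which protects cells from complement, had 378, 53.9 and 132 units on the first 3 arrays and was under the floor on the array labelled 6 h estradiol, at least 3.49-fold higher. These were 5 of 22 measured genes of a list of uterine secreted proteins and complement. In the same list 3 were lower, and the median was 0.07. Of 18 measured in the other pair 0 passed 2-fold, and the median was -0.03. Cfd, a complement protease made by fat cells, had 32.1, 750, 563 and 410 units, at least 8.37-fold lower. It is also on the list of 5 measured adipocyte markers, of which it alone passed 2-fold and all 5 had a difference below 0, with a median of -0.76 against 0.40 in the other pair. The summed signal of that list was 2710, 5056, 6042 and 4497 units, and its part in the Cfd result was not tested. Serping1, the inhibitor of the first complement component, had 342, 1090, 1170 and 1310 units and was 3.19-fold lower. Lcn2, an iron-carrier-binding protein of innate defence, had 82.8, 331, 233 and 143 units, at least 3.69-fold lower. All 3 were lowest on the 24 h estradiol array.

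**Figure D2:**
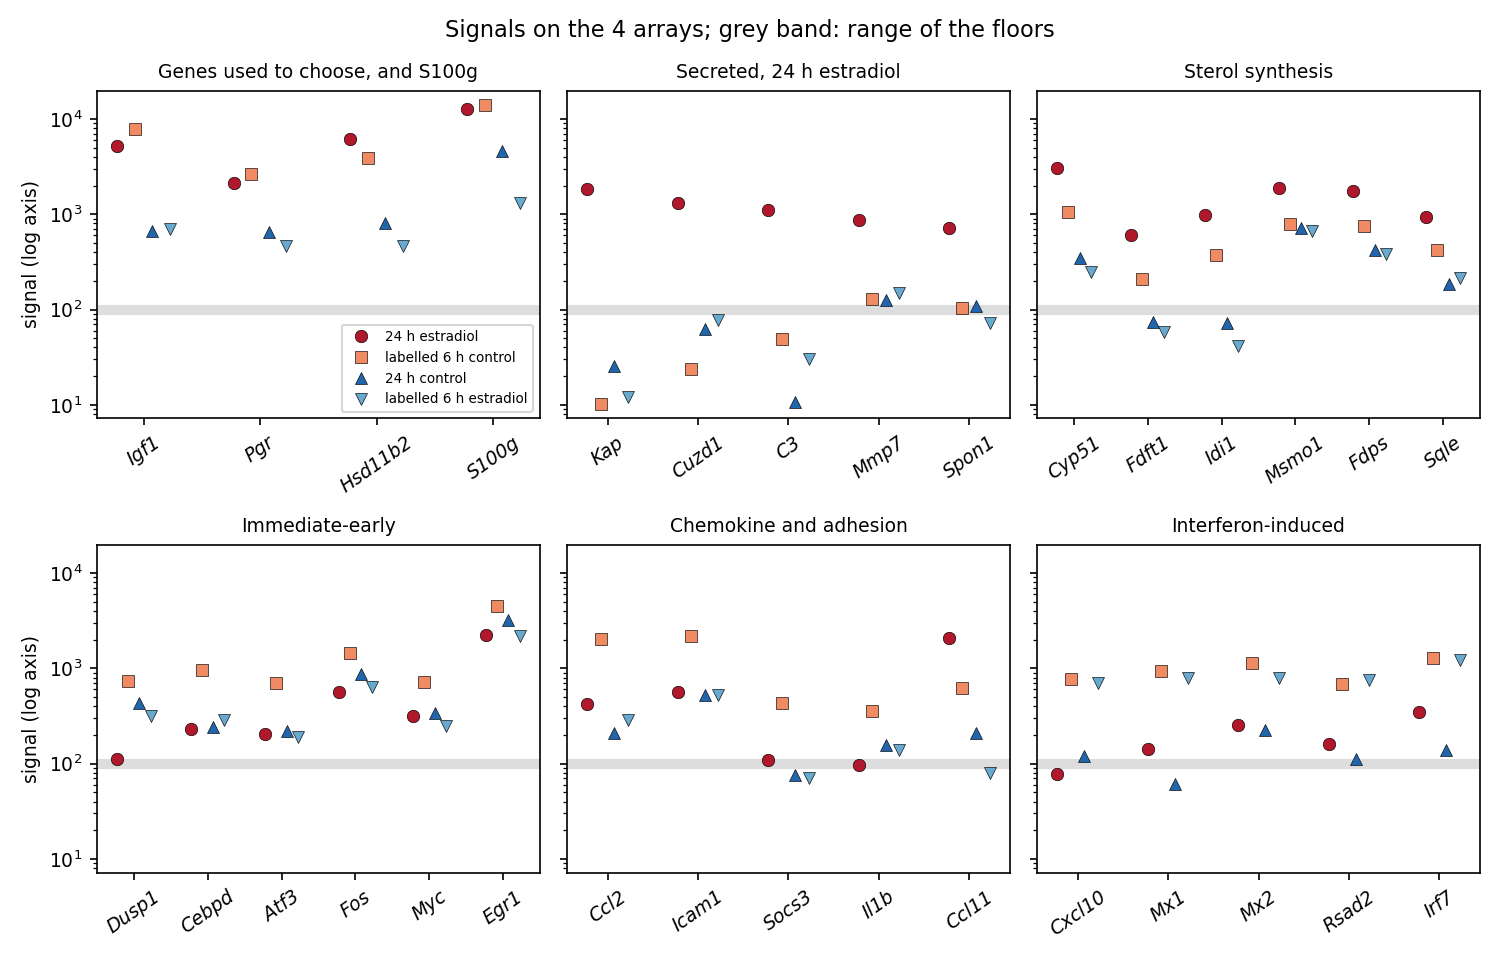
Signal of single genes on the 4 arrays (vertical, log axis), 1 point per array in the colours and shapes of the legend, with the range of the floors in grey. Kap, Cuzd1 and C3 rise above the band on the 24 h estradiol array alone, the immediate-early genes are highest on the array labelled 6 h control, and Cxcl10, Mx1, Mx2, Rsad2 and Irf7 are high on both arrays of 6 h.

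Some markers of epithelium were higher on the 24 h estradiol array. Of 8 measured markers 4 were higher on the 24 h estradiol array and 0 lower, with a median of 0.89 against 0.31 in the other pair. Differences were above 0 for 6 of the markers and below 0 for 2. Within the scan days, 5 of 8 were higher on the 24 h estradiol array than on the 24 h control, and 3 of 7 on the array labelled 6 h control than on the array labelled 6 h estradiol. After subtraction of the other pair's difference, or with a floor at the 60th percentile, 2 of the 8 were higher. That subtraction gave 11.4% of all genes higher. Krt8, a keratin of simple epithelia, had 996, 404, 206 and 69.5 units and was 2.47-fold higher. In the other pair Krt8 was higher too, at least 2.01-fold. Krt19, another keratin, had 1101, 328, 255 and 137 units and was 3.36-fold higher, by 1 of its 2 probe sets. Cldn3, a tight junction protein, had 420.5, 129.5, 160 and 57.3 units, 3.25-fold higher, by 1 of its 2 probe sets. Epcam, an epithelial adhesion protein, had 355, 62.6, 127 and 58.5 units, at least 3.28-fold higher. Krt18, the usual partner of Krt8, had 538 and 520 units on the chosen arrays. The summed signal of the list was 3884, 2030, 1415 and 1044 units. The part of epithelial cells in the secreted protein results was not tested. In pooled tissue, a change in the number of cells of a type and a change in RNA per cell cannot be told apart.

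Of the 38 gene lists, cholesterol synthesis had the highest median difference. This pathway makes sterols from acetyl units through mevalonate and squalene. Of 16 measured genes 7 were higher and 0 lower, the median was 0.96, and 0 of the 16 had a difference below 0. In the other pair 1 of 12 was higher and 1 lower, with a median of 0.20. For all 7 the 24 h estradiol array was at least 2-fold above each other array. Idi1, which isomerises the isoprene unit, had 987, 376.5, 71.7 and 41.5 units and was 2.62-fold higher, by 1 of its 2 probe sets. Fdps, which makes farnesyl diphosphate, had 1744, 749, 423 and 378 units and was 2.33-fold higher. Fdft1, which joins 2 such units to squalene, had 606, 211, 73.2 and 58.0 units and was 2.87-fold higher. Sqle, which oxidises squalene, had 942, 417, 184 and 214 units and was 2.26-fold higher. Cyp51, which demethylates lanosterol, had 3034, 1048, 348 and 249 units and was 2.90-fold higher, although only 1 of its 5 probe sets passed 2-fold. Msmo1, which removes further methyl groups, had 1899, 790, 724 and 668 units, 2.40-fold higher. Acat2, an acetoacetyl-CoA thiolase, had 1573, 524, 143 and 538 units, and its difference was the largest of the 7. Within the scan days, 9 of 16 were higher on the 24 h estradiol array than on the 24 h control, with a median of 1.66, and 6 of 14 on the array labelled 6 h control than on the array labelled 6 h estradiol. For Idi1, Fdft1, Cyp51, Fdps, Sqle and Msmo1 the array labelled 6 h control lay between the 24 h estradiol array and both others. For Msmo1 it was close to both others, and for Idi1 and Fdft1 both others were under their floors. With a common median 12 of the 16 were higher.

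Fatty acid genes gave 5 of 29 higher and 0 lower, with a median of 0.24. The other pair gave 2 of 27 higher and 2 lower, and its median was 0.16. Scd2, a fatty acid desaturase, had 3713, 461, 2055 and 1928 units and was 8.06-fold higher on the 24 h estradiol array. Here the array labelled 6 h control was the low one, below each other array, which held for 49 genes (1.35%). Its relative Scd had 505, 116.5, 66.7 and 16.5 units and was 4.33-fold higher, by 1 of its 2 probe sets. Me1, which makes NADPH for lipid synthesis, had 641, 206, 231.5 and 196 units, 3.12-fold higher, with 4 of 5 probe sets past 2-fold. Outside this list, Idh1, another source of cytosolic NADPH, had 1314, 208, 559 and 515 units and was 6.32-fold higher, by 1 of its 2 probe sets. Dbi, which binds acyl-CoA esters and is also outside the list, had 2065, 489, 926 and 680 units and was 4.23-fold higher. Idh1 and Scd2 were lowest on the array labelled 6 h control and highest on the 24 h estradiol array. Other genes were low on the array labelled 6 h control alone. Mpst, a sulfurtransferase, had 743, 172, 954 and 951 units, and Speg, a kinase of muscle, had 909.5, 174.5, 954.5 and 727 units.

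Some genes of protein folding were also higher. Of 18 measured genes of endoplasmic reticulum folding and stress 5 were higher and 0 lower, and their median was 0.51. The other pair had 1 higher and 2 lower, and its median was 0.37. Pdia6 and P4hb, which form disulfide bonds, were 2.30-fold and 2.22-fold higher. Hsp90b1, a chaperone, had 5496, 2574, 2336 and 1858 units and was 2.14-fold higher. Hspa5, the main chaperone of this compartment, had 4503, 4073, 2726 and 1325 units and differed little between the chosen arrays. Of 32 genes of the secretory pathway 3 were higher (9.38%, against 6.04% of all genes) and 0 lower, and their median was 0.39. The other pair gave 0 of 31 higher and 3 lower, and its median was 0.17. Sec61b and Sec61a1, subunits of the channel through which proteins enter the endoplasmic reticulum, were 2.44-fold and 2.54-fold higher. Oxidative phosphorylation genes shifted by less than 2-fold for the most part. Of 44 measured 4 were higher and 1 lower, but 42 differences were above 0 and the median was 0.57. The other pair had a median of 0.34 over 45 genes, with 0 higher and 1 lower. The number of higher genes moved with the scaling, to 11 of oxidative phosphorylation and 10 of the secretory pathway with a common median, and to 2 and 5 with quantile normalization. With a pseudocount of 50 in place of the floor, 2 genes of oxidative phosphorylation were higher. After subtraction of the other pair's difference, 2 of the 18 folding genes were higher, against 11.4% of all genes.

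**Figure D3:**
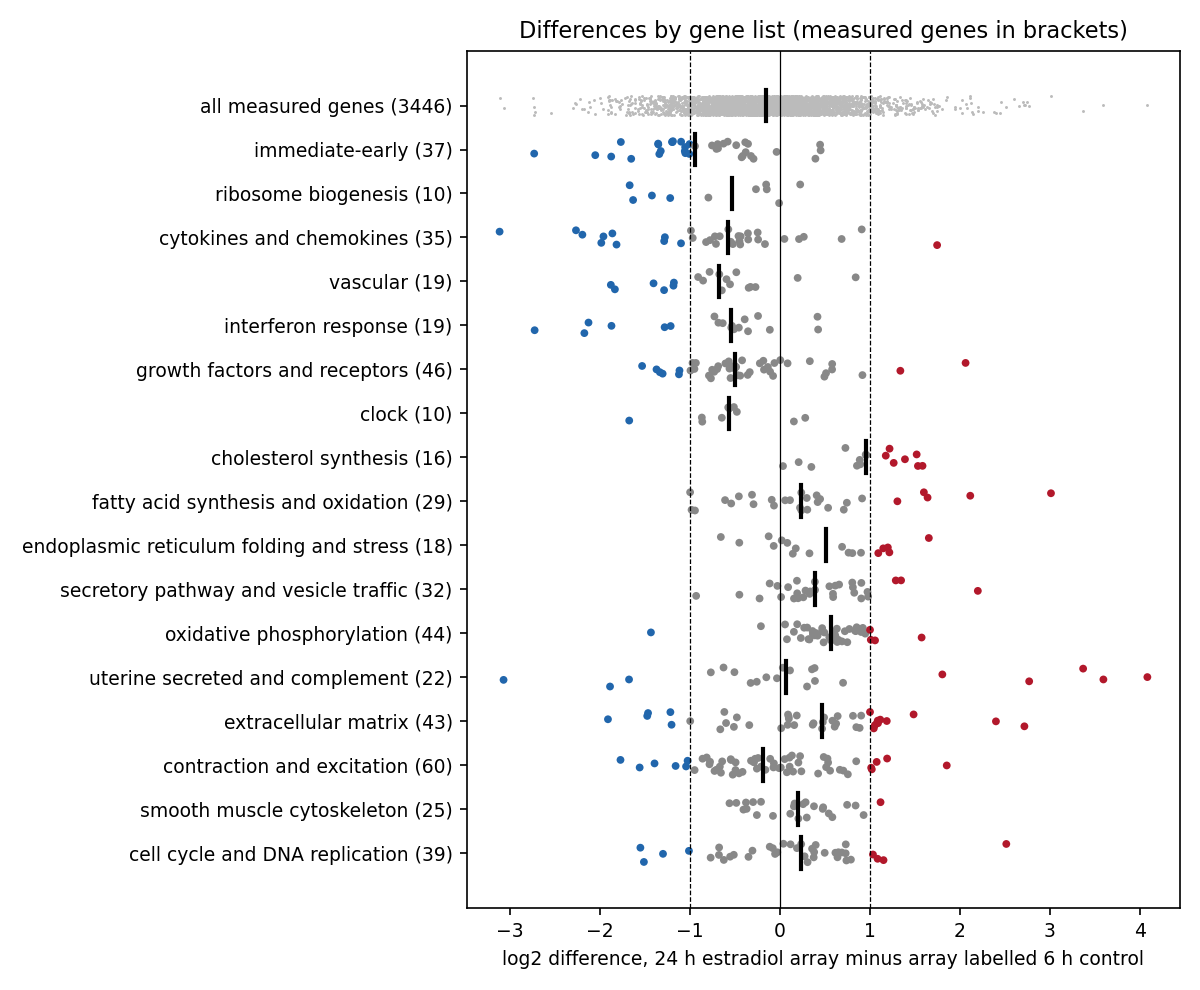
Log2 difference of each measured gene (24 h estradiol array minus array labelled 6 h control, horizontal) for all genes and for 17 gene lists, with the number of measured genes in brackets. Black bars are medians, dashed lines mark 2-fold, red points are genes past it to the right and blue points to the left; the cholesterol list has its median at 0.96 and the immediate-early list at -0.94.

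Extracellular matrix genes went both ways, 11 of 43 higher and 5 lower, with a median of 0.47. Of 46 in the other pair 1 was higher and 4 lower, and the median was 0.11. Spon1, an adhesion protein, had 711, 104, 110 and 72.0 units, at least 6.57-fold higher, and Vcan, a large proteoglycan, had 587, 111, 152 and 48.9 units, 5.28-fold higher. Lox, which crosslinks collagen and elastin, had 1883, 672, 1678 and 1015 units and was 2.80-fold higher. Lum, a small proteoglycan, had 2218, 974, 1211 and 2558 units and was 2.28-fold higher. The lower genes include Efemp1, a fibulin, with 470, 1763, 4250 and 3308 units, 3.75-fold lower, and Postn, periostin, with 1070, 2948, 5270 and 5787 units, 2.75-fold lower. Gpc3, a membrane proteoglycan, had 425, 1178, 1603 and 1810 units, 2.77-fold lower, by 1 of its 3 probe sets. For Efemp1, Postn and Gpc3 the array labelled 6 h control lay between the 24 h estradiol array and the others. With a common median 15 of the 43 were higher, and after subtraction of the other pair's difference 6. These settings gave 10.1% and 11.4% of all genes higher.

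Of the 38 lists, the immediate-early list had the most genes lower on the 24 h estradiol array and the lowest median. These genes are switched on within minutes by growth factors, hormones or injury, without new protein synthesis. Of 37 measured genes 18 were lower and 0 higher, with a median of -0.94 and 34 differences below 0. In the other pair 6 of 36 were lower and 1 higher, with a median of -0.12. With a common median 9 of the 37 were lower and the list's median was -0.71. After subtraction of the other pair's difference 16 were lower and 6 higher, against 11.5% and 11.4% of all genes. For 7 of the 18 the array labelled 6 h control was at least 2-fold above each other array, and for Dusp1 the 24 h estradiol array was below each other array. Genes high on the array labelled 6 h control against each other array numbered 52 in all (1.44%). Within the scan days, 14 of 37 immediate-early genes were higher and 2 lower on the array labelled 6 h control than on the array labelled 6 h estradiol, with a median of 0.69. At 24 h, 5 of 36 were higher and 3 lower with estradiol than in the control, with a median of -0.11. The promoters of Egr1 and Dusp1 show the elements through which serum and cyclic AMP act on such genes. They are RefSeq sequences of the build GRCr8, each of the 250 bases before the gene start. Capitals mark 2 CArG boxes in Egr1, the core of the serum response element, and in Dusp1 the palindrome TGACGTCA, the cyclic AMP response element (CRE).
Egr1, chr18:26736828-26737077, plus strand: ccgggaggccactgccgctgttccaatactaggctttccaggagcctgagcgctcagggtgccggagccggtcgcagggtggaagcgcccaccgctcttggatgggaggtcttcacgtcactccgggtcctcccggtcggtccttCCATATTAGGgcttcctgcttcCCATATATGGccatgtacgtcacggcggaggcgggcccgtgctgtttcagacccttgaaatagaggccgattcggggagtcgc
Dusp1, chr10:17184603-17184852, plus strand: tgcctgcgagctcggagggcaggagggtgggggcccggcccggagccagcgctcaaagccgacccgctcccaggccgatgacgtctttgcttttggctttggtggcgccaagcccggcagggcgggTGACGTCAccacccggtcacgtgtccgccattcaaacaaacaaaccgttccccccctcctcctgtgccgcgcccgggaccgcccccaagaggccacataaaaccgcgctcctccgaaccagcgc
Both strands of the 250 bases before and 50 after each start were searched, and the matches shown do not overlap. A CArG box was found in 4 of 13 lower immediate-early genes with a promoter in the table, namely Egr1, Egr2, Dusp5 and Zfp36, against 1.64% of all 27457 promoters. The CRE was found in 1 of the 13, Dusp1, against 1.91% of all. A match is a description of the sequence and was not shown to act here.

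Dusp1, a phosphatase that turns off MAP kinases, had 113, 745, 431 and 315 units and was 6.62-fold lower on the 24 h estradiol array. Cebpd, a transcription factor of the acute phase response, had 232, 958, 240 and 289 units and was 4.14-fold lower. Crem, a factor of cyclic AMP signalling, had 504, 1846, 831 and 677 units and was 3.66-fold lower. These 3 genes were highest on the array labelled 6 h control. The stress-induced factor Atf3 had 207, 704, 222 and 189 units, 3.40-fold lower. Fos had 567, 1444, 874 and 642 units and was 2.55-fold lower, and all 3 of its probe sets passed. Myc had 315, 723, 343 and 246 units, 2.29-fold lower, and both of its probe sets passed. Egr1 had 2254, 4519, 3199 and 2183 units, 2.01-fold lower, close to the threshold. For Atf3 and Myc the other 3 arrays were alike, whereas Fos and Egr1 had intermediate values on the 24 h control. Jun had 1015, 1418, 1122 and 1307 units and did not reach 2-fold by its brightest probe set. Junb, a partner of Fos, had 523, 1333, 25.8 and 334 units, 2.55-fold lower, and was also lower in the other pair. Ppp1r15a, a stress-induced phosphatase subunit outside this list, had 557, 2591, 714 and 772 units and was 4.65-fold lower.

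Some genes of the nucleolus were high on the array labelled 6 h control as well. Of 10 measured genes of ribosome biogenesis 4 were lower on the 24 h estradiol array and 0 higher, with a median of -0.53. In the other pair 0 were higher and 1 lower. Nop58, a core protein of the particles that methylate ribosomal RNA, had 810, 2571, 569 and 435 units, 3.17-fold lower. Nolc1, which shuttles between nucleolus and cytoplasm, had 718, 2218, 630 and 655 units, 3.09-fold lower. Gnl3, a nucleolar GTP-binding protein, had 1311, 3505, 1047 and 931 units, 2.67-fold lower. Polr1b, a subunit of RNA polymerase I, had 287, 667.5, 263 and 253 units, 2.32-fold lower, by 1 of its 2 probe sets. For each of the 4 the array labelled 6 h control was at least 2-fold above each other array. Within the scan days, 6 of 10 were higher and 0 lower on the array labelled 6 h control than on the array labelled 6 h estradiol, and 3 of 11 were higher and 0 lower at 24 h with estradiol than in the control. Cell cycle genes gave 4 of 39 higher (10.3%) and 4 lower (10.3%), against 6.04% and 9.75% of all genes. In the other pair 0 of 37 were higher and 2 lower, against 2.26% and 7.97% of all genes. Pcna, the clamp of DNA polymerase, had 1747, 2223, 1588 and 1424 units, and the cyclin Ccnd1 had 1594, 1466, 875 and 911 units. Neither passed 2-fold.

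Some cytokine and vascular genes were lower on the 24 h estradiol array as well. Of 35 measured cytokine, chemokine and related genes 10 were lower on the 24 h estradiol array and 1 higher, with a median of -0.57. The other pair had 3 higher and 2 lower, with a median of 0.04. With a floor at the 60th percentile 5 of the 35 were lower. Ccl2, a chemokine that draws monocytes, had 420.5, 2017, 211 and 289.5 units, 4.80-fold lower. Icam1, an adhesion receptor for leukocytes, had 569, 2210, 523.5 and 531.5 units, 3.88-fold lower, and Socs3, a feedback inhibitor of cytokine signalling, had 109, 429, 76.4 and 70.7 units, 3.95-fold lower. Il1b, an inflammatory cytokine, had 97.6, 354, 156 and 140 units, 3.63-fold lower, by 1 of its 3 probe sets. All 4 were highest on the array labelled 6 h control, and Icam1 was nearly equal on the other 3. Cxcl13, which attracts B cells, was low on the 24 h estradiol array alone, 4.57-fold lower than on the array labelled 6 h control, where it had 457 units, against 524 and 605 on the others. Ccl11, the eosinophil chemokine eotaxin, was the 1 higher gene, with 2073, 618, 211 and 80.7 units, 3.36-fold. In the other pair Ccl11 was higher too, at least 2.06-fold. Of 19 vascular genes 6 were lower and 0 higher, with a median of -0.67 against 0.22 in the other pair. Kdr, the main receptor of VEGF, had 192, 705, 303 and 184 units, 3.67-fold lower. Nos3, the endothelial nitric oxide synthase, had 165, 586, 350 and 242 units and was 3.56-fold lower, but only 1 of its 6 probe sets passed. Vegfa had 307, 695, 491 and 423 units, 2.27-fold lower, by 2 of its 4 probe sets.

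Markers of macrophages and endothelium were measured beside these genes. Of 12 macrophage markers 3 were lower (RT1-Da, RT1-Ba and Cd14) and 0 higher, with a median of -0.58 against 0.39 in the other pair. Differences were below 0 for 9 of the markers and above 0 for 3. Only 1 probe set passed for each lower marker, of 2 for RT1-Da, 3 for RT1-Ba and 2 for Cd14. With a common median 1 of the 12 was lower. Their summed signal was 8069, 11860, 11380 and 9406 units, so the array labelled 6 h control was close to the 24 h control. Csf1r and Itgam were under the floor on both chosen arrays. Of 4 measured endothelial markers Kdr and Selp were lower, against 0 of 5 in the other pair, and Pecam1 had 368, 328, 550 and 377 units. Kdr is also on the vascular list above, so it counts in both results. The summed signals of the endothelial list were 978, 1821, 1657 and 1353 units. The part of either cell type in the cytokine and vascular results was not tested. Markers of smooth muscle, the labelled tissue, were all above the floor on every array. Acta2 had 17195, 13964, 16652 and 10961 units and Myh11 had 15095, 13915, 17850 and 10608 units. Of 10 measured markers 0 passed 2-fold between the chosen arrays, with a median of 0.28, and 0 in the other pair, with a median of 0.30. With a common median 2 of the 10 were higher between the chosen arrays, and the median was 0.514. With quantile normalization 0 were higher, and it was 0.035.

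**Figure D4:**
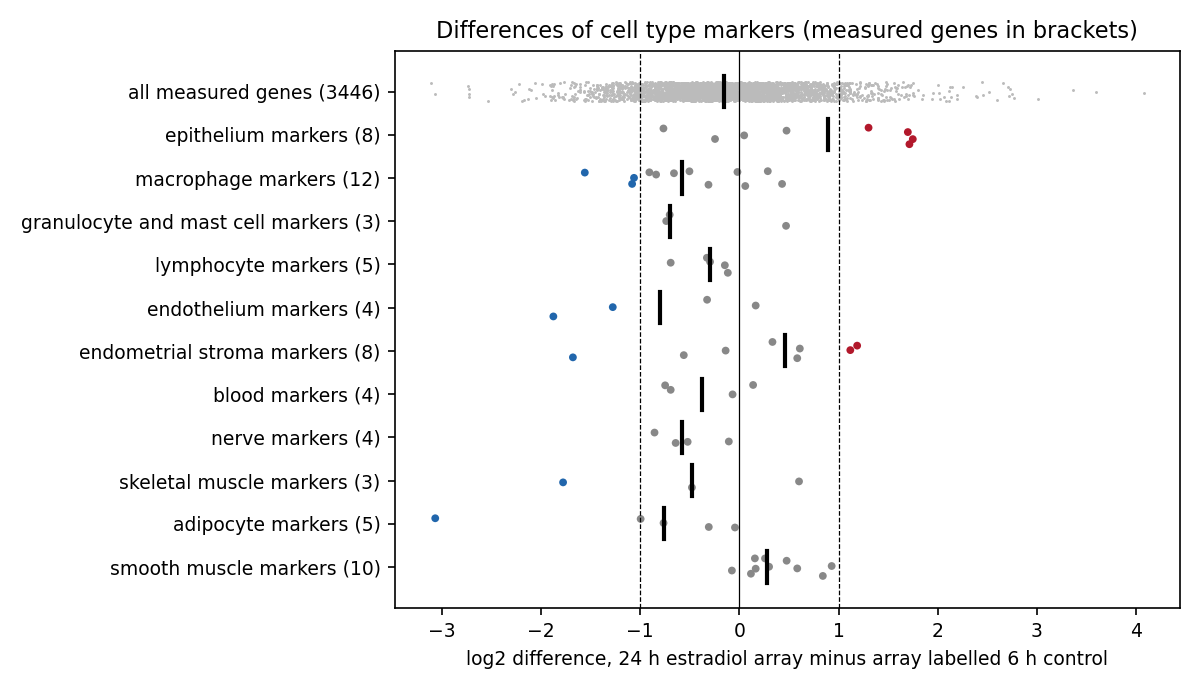
Log2 difference of each measured marker gene (24 h estradiol array minus array labelled 6 h control, horizontal) for all genes and for 11 cell type lists, drawn as for the pathway lists. Epithelial markers have a median of 0.89, macrophage markers -0.58 and smooth muscle markers 0.28.

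Several genes induced by interferon were lower on the 24 h estradiol array, and Mx1, Mx2, Rsad2 and Irf7 were lower in the other pair too. Interferons induce antiviral proteins through the interferon-stimulated response element (ISRE). Of 19 measured genes 6 were lower and 0 higher, with a median of -0.54, and the other pair had 5 lower and 0 higher, with a median of -0.44. The promoters of Irf7, Rsad2 and the interferon-induced chemokine Cxcl10 are shown for the element they share, GAAANNGAAA on either strand, in capitals, in the same build and window.
Irf7, chr1:205800024-205800273, minus strand: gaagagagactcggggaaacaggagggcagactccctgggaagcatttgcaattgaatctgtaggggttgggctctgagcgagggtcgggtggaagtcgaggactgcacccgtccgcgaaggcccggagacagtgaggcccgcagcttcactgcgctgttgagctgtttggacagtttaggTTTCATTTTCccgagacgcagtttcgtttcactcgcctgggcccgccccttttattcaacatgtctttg
Rsad2, chr6:48788121-48788370, minus strand: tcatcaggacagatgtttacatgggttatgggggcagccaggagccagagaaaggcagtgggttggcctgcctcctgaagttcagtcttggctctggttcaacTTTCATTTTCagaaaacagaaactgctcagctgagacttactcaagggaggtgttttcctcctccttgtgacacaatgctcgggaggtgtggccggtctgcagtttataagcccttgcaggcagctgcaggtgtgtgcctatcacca
Cxcl10, chr14:15988816-15989065, plus strand: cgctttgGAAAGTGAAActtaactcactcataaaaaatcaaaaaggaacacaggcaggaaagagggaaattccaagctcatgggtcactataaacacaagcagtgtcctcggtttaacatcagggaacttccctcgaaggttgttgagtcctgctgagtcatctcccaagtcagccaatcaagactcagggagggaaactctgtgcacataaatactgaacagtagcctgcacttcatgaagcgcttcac
The ISRE was found in 3 of 5 lower interferon genes with a promoter in the table, namely Irf7, Rsad2 and Tap1, and in 3.77% of all promoters. Mx1, an antiviral GTPase, had 144, 949, 61.4 and 797 units and was 6.59-fold lower on the 24 h estradiol array. Its relative Mx2 had 255, 1146, 225 and 787 units. Rsad2, the antiviral protein viperin, had 159, 693, 113 and 747 units, 4.36-fold lower, and Irf7, a factor that drives interferon genes, had 352, 1285, 138 and 1212 units, 3.65-fold lower. Cxcl10 had 78.8, 773, 122 and 709 units, at least 8.63-fold lower. All 5 were high on both arrays of 6 h and low on both of 24 h, whatever the treatment label. This pattern held for 16 genes in all (0.442%), and 5 genes were high on both arrays of 24 h (0.138%). Within the scan days, 1 of 19 was higher and 1 lower at 24 h with estradiol than in the control, and 0 were higher and 0 lower between the arrays of 6 h. After subtraction of the other pair's difference 2 of the 19 interferon genes were lower, against 11.5% of all genes. Of the 336 genes lower in the chosen pair, 32 were also lower in the other pair and 3 higher. Of the 208 higher genes, 11 were also higher there and 23 lower. Over all genes measured in the other pair, 7.97% were lower and 2.26% higher.

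**Figure D5:**
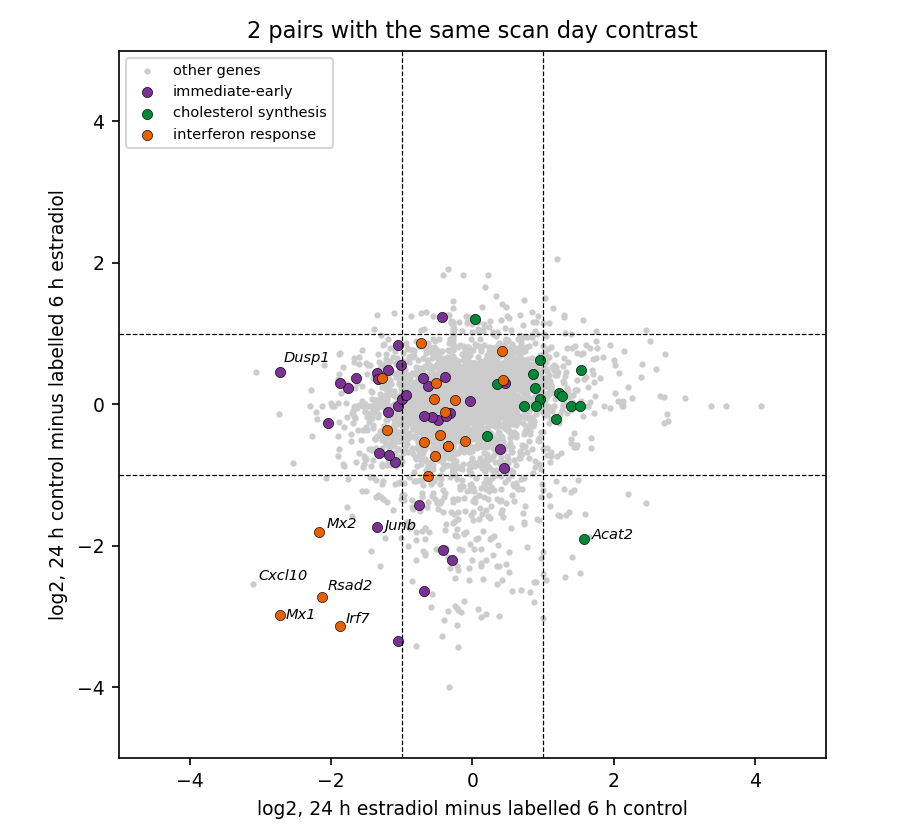
Log2 difference of the chosen pair (horizontal) against that of the other pair, 24 h control minus array labelled 6 h estradiol (vertical), 1 point per gene measured in either pair, with dashed lines at 2-fold. Here Mx1, Mx2, Rsad2, Irf7 and Cxcl10 lie low in both pairs, while most cholesterol genes lie to the right near the horizontal middle, with Acat2 below them.

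Growth factor and contractile genes passed 2-fold in both directions, and with a floor at the 60th percentile 1 of each list was lower. Of 46 growth factor and receptor genes 2 were higher (4.35%) and 6 lower (13.0%), and the median was -0.49. Over all measured genes 6.04% were higher and 9.75% lower. Most differences of this list were to the lower side, 36 below 0 and 10 above. The other pair had a similar count, 1 of 44 higher and 5 lower, with a median of -0.02. Inhba, a subunit of activins, had 157, 454, 204 and 337 units, 2.88-fold lower. Igfbp3, which binds insulin-like growth factors, had 331, 719, 1023 and 2882 units, 2.17-fold lower, and was also lower in the other pair. Of 60 genes of contraction and excitation 5 were higher (8.33%) and 6 lower (10.0%), and the median was -0.18. These shares were near those of all measured genes. Of 59 in the other pair 1 was higher and 2 lower, and the median was 0.07. Agtr2, an angiotensin receptor, had 391, 9.9, 48.7 and 6.0 units, at least 3.61-fold higher, by 1 of its 2 probe sets. By these values Agtr2 was above the floor only on the 24 h estradiol array. Atp1b1, a sodium pump subunit, had 1526, 668, 2353 and 3918 units, 2.28-fold higher. Adrb3, a relaxing adrenergic receptor, had 124, 420.5, 333 and 376.5 units, 3.41-fold lower. Kcnj11, a subunit of ATP-sensitive potassium channels, had 50.6, 263, 190 and 183 units, at least 2.94-fold lower, by 1 of its 2 probe sets. Among single genes with the largest differences, Rdh10, which makes retinal from retinol, had 95.9, 634, 144 and 98.4 units, 6.61-fold lower. Hs6st1, a heparan sulfate sulfotransferase, had 559, 3238, 553 and 988 units, 5.79-fold lower. The transporter gene Slc16a6 had 177, 869, 77.0 and 87.7 units, 4.92-fold lower. Each of these 3 was highest on the array labelled 6 h control. Probe sets of 1 gene often did not give the same call. Of 992 genes with several measured probe sets 312 had at least 1 past 2-fold, and for 47 of these all probe sets were past it in the same direction, while 7, Igf1 among them, had probe sets past it in both directions.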

How the data were processed

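Total RNA of rat myometrium was labelled with biotin and hybridised to RG_U34A arrays, 1 per treatment and time, each from 6 pooled animals. The authors deposited 1 table of intensity values, made with MAS5 per the submitters' processing notes, and its version and settings were found in no source used here. Per the file headers of the deposited instrument records (wash steps and other values), all arrays had the same chip lot. The number of arrays limits the precision.

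The 59 Affymetrix control probe sets were left out. In GEO's platform annotation 7018 probe sets have 1 gene symbol, 308 have several and 1473 have none; genes were named from the first kind only, and 24 had no RefSeq gene. The intensities were brought to the same 2% trimmed mean, low ones were set to the 40th percentile of their array, and log2 was taken with numpy 2.4.6 and pandas 2.3.3. With both arrays at the floor a gene counted as not measured. A gene is its brightest probe set over the 4 arrays. The 2 arrays, the 38 gene lists and the motifs were chosen with earlier results of these data known. Named genes were the 15 largest differences and 6 largest bounds per direction, up to 6 per list and per pattern over the 4 arrays, and genes fixed by name, not all of which are printed. Egr2, Dusp5 and Zfp36 (promoter matches), and Cd55, Csf1r, Igfbp3, Itgam, Mcpt1l1, Pecam1 and Sqle (list or pattern members), were named outside this rule after their values were seen. Alternatives were other scalings, floors and folds, a pseudocount of 50, and subtraction of the other pair. Comparisons within a scan day were chosen after seeing the data.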

Additional observations from a re-analysis of the deposited data

Results flagged for a closer look

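Among the Affymetrix control probe sets, which enter no comparison, 2 were at least 2-fold brighter on the 24 h estradiol array than on both control arrays. The 3' probe set for Gapdh, a glycolytic enzyme, gave 12030 units there, against 5760 on the array labelled 6 h control, 5192 on the 24 h control and 5553 on the array labelled 6 h estradiol. The probe set for hexokinase gave 297.6 units, against 78.36, 141 and 58.44 in the same order, so 2 of the 3 other arrays were under their floors. Of 23 measured genes of glycolysis and glycogen 2 were higher and 0 lower between the chosen arrays (8.70% higher, against 6.04% of all genes), the median log2 difference was 0.15, and 11 of the 23 were below 0.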

How the results depend on the processing

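No paired analysis was possible because each group has 1 array. For the same reason no replicate could be left out. The counts of probe sets higher and lower, 382 and 615, became 632 and 336 with a common median and 476 and 442 with quantile normalization. They became 673 and 1264 with the floor at the 20th percentile, and 207 and 259 with it at the 60th. At 1.5-fold the counts were 930 and 1509, and at 3-fold 108 and 121. The higher count was 660 after subtraction of the other pair's difference and 215 without probe sets of suffixed names, which leave fewer to test. Of 154 named genes past 2-fold, 41 passed in every setting in which they were compared, the 3-fold rule included, and 135 with a common median. With both arrays above the floor only 125 of the 154 were compared, and with the floor at the 60th percentile 147. Named genes were not followed at 1.5-fold or without probe sets of suffixed names. Log2 differences changed sign for Gja1 (-0.17), Hipk3 (-0.059) and Top2a (-0.071) with the floor at the 60th percentile. With only probe sets above the floor on both arrays, Aldh3a2 (-0.72), Fgfr2 (-0.99) and Stk39 (-0.68) did, through another probe set. Eci1 (-0.013) did with the mean of its probe sets. After subtraction of the other pair, Crk (-0.48), Eif5b (0.034), Hipk3 (-0.87), Hmgb2 (0.01), Irf7 (1.27), Junb (0.38), Mx1 (0.26), Rpl5 (0.084) and Rsad2 (0.60) changed sign. The cause of these changes was not tested beyond this. Signals near the floor limit what can be ranked.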
